A study of Mus musculus with 12 samples.

Results

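The genes described here are 10 genes of the Hippo pathway and its nuclear effectors in isolated mouse glomeruli: the coactivators Yap1 and Wwtr1 (TAZ), the DNA-binding partners Tead1 and Tead4, the inhibitory kinases Lats1 and Lats2, the angiomotin-like scaffolds Amotl1 and Amotl2, the LIM adaptor Ajuba, and the target gene Ankrd1. They were taken by symbol from a list of names, with no threshold on a measured value. The list itself was chosen with earlier results of these data known. All 10 of them are present among the 26264 gene symbols counted in this RNA-seq series, and all 10 passed the filter on low counts that left 17002 genes for testing. The mice were 8-week-old males of a pair of inbred substrains from 1 breeder, BALB/cAjcl, called Ajcl here, and BALB/cByJcl, called ByJcl, with no transgene or engineered allele named for either. In each substrain 3 libraries came from untreated baseline mice and 3 from mice killed at Day 5 after 1 intravenous injection of adriamycin (ADR, doxorubicin) at 10 mg/kg, an anthracycline that injures podocytes. The baseline mice received no injection, although saline controls are named in the protocol, so the injection and the drug cannot be told apart. Baseline and Day 5 counts were deposited as separate tables, and any difference in how these were made cannot be told apart from the treatment either. Glomeruli were trapped on magnetic beads perfused through the heart, released by collagenase and sequenced as poly(A)-selected, strand-specific paired-end libraries. The labels do not say that each library came from its own mouse, so the tests below measure the spread between libraries.

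In the Hippo pathway the kinases LATS1 and LATS2, switched on by the MST kinases, phosphorylate YAP and TAZ and so keep them in the cytoplasm or mark them for degradation. Unphosphorylated YAP and TAZ enter the nucleus, bind TEAD factors on DNA and raise transcription of genes such as Ankrd1, Ccn1 and Ccn2. Angiomotin proteins hold YAP and TAZ at cell junctions and on actin, LIM adaptors such as AJUBA restrain LATS kinases, and cell stretch, matrix stiffness and F-actin raise YAP activity. YAP is best known in the glomerulus for its part in podocyte survival. mRNA counts measure transcript levels and not the phosphorylation or location of these proteins.

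Total counts per library ran from 42198416 to 54687045. Between 77.1% and 82.9% of the counts from 1 to 49 in each library were even numbers, and the counting options are not given in the sources used here. An alternative with halved counts, chosen after seeing the data, called the same number of the 10 genes in each comparison. Markers of the labelled tissue were abundant: the 10 podocyte markers summed to between 9908 and 22665 CPM (counts scaled to a common library size by edgeR's TMM method) in the 11 libraries used for testing. The remaining library, Ajcl Day 5 replicate 1, was left out of the main comparisons because the study excluded it for low glomerular purity. Its 8 proximal tubule markers summed to 8014 CPM, above the 492 to 5196 CPM of the others. Ajcl at Day 5 is therefore n = 2, and values from the library left out are given beside some of the results.

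Of the 10 genes, Ankrd1 and Yap1 moved past the test, both in ByJcl mice after ADR and in opposite directions. Of all tested genes 10.6% passed it there (5.75% higher and 4.83% lower). Ankrd1 rose about 4-fold, with a fold of 3.95, and Yap1 fell to 0.710 of its baseline level. Amotl2 and Ajuba lay above baseline in every ByJcl Day 5 library without passing the test. Of all tested genes 17.3% lay wholly above baseline there. Transcripts of the kinases, of both TEAD factors, of Wwtr1 and of Amotl1 stayed within 0.24 log2 units of baseline in ByJcl. Differences in Ajcl did not pass the test for any of the 10 genes, where 0.312% of all tested genes passed it. In edgeR 0 of all 17002 genes passed the test of whether the substrains responded differently, so a response particular to ByJcl was not shown. In whole glomeruli a loss of one cell type and less RNA per cell of that type cannot be told apart.

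The promoters of 4 genes are shown here because TEAD factors recognise GGAATG and these genes hold it and carry the results below: Ankrd1, Yap1 and Amotl2 among the 10, and the classical target Ccn1. Each line gives the 250 bases before the annotated start, 5′ to 3′ on the gene's strand, from RefSeq on GRCm38.p6, with GGAATG or its reverse complement CATTCC in capitals. Ankrd1 spans chr19:36119845-36120094 on the minus strand, Yap1 chr9:8004597-8004846 on the minus strand, Amotl2 chr9:102717554-102717803 on the plus strand and Ccn1 chr3:145649986-145650235 on the minus strand.
Ankrd1: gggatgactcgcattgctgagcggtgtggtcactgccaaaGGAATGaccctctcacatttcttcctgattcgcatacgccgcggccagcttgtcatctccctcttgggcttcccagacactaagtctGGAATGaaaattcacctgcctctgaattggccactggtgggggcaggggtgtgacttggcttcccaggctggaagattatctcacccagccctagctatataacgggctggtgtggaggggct
Yap1: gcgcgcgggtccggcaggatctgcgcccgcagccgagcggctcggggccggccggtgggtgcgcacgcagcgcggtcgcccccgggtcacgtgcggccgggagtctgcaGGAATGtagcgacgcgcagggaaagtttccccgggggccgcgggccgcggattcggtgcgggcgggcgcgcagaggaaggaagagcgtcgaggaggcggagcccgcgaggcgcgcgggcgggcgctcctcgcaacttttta
Amotl2: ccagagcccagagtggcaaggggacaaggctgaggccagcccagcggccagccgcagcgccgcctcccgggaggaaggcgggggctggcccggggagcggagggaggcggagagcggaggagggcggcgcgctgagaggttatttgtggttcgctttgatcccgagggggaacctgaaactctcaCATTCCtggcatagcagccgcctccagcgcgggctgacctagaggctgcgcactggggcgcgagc
Ccn1: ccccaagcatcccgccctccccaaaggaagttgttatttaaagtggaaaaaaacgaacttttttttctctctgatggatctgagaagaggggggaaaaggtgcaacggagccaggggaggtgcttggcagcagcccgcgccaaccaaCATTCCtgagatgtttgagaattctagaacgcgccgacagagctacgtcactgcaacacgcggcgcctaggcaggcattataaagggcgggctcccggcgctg

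In the Ankrd1 promoter the letters begin 210 and 123 bases before the start, in Yap1 141 bases, in Amotl2 65 bases and in Ccn1 103 bases before it. Searched on both strands, GGAATG was found in 6 of the 10 promoters that RefSeq lists for 8 of the genes: those of Yap1, Amotl2, Ajuba and Ankrd1 and both of Wwtr1. The 2 Wwtr1 windows overlap and hold the same site, so these are 5 of 8 genes. Ajuba and Ankrd1 held it at 2 places each. Among 32851 mouse promoters of the same length 12.6% held it. Of the 16 promoters listed for 14 of 22 further target genes, 4 held it, in Ccn1, Axl, Crim1 and Flnc. The AP-1 motif TGANTCA, which can share its end letters with GGAATG or CATTCC, was found in 0 of the 10 promoters and in 1 of the 16, that of F3, against 6.75% of all promoters. A match of letters is a description of the sequence and does not show binding, and the counts were not made from these sequences.

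Yap1, which encodes the coactivator YAP, lies on chromosome 9 of GRCm39 from 7932000 to 8004661 on the minus strand (GENCODE M39). At baseline its level was 289, 299 and 285 CPM in the Ajcl libraries and 330, 313 and 282 CPM in the ByJcl libraries. At Day 5 it was 268 and 217 CPM in Ajcl and 224, 217 and 217 CPM in ByJcl. The ByJcl Day 5 libraries sat close together and all below the lowest baseline library, and the Ajcl Day 5 libraries were also both below baseline. In ByJcl the log2 fold change (log2FC) at Day 5 against baseline was -0.49 (SE 0.10, edgeR adjusted p = 0.0138, from its quasi-likelihood fit and corrected by Benjamini-Hochberg over all tested genes), from 308 ± 24.6 to 219 ± 3.85 CPM (SD, n = 3 each). Here 2 of the 10 genes, 1 of them lower, were called at an adjusted p below 0.05, where 10.6% of all tested genes were called (4.83% lower and 5.75% higher). Yap1 kept its sign in 21 of 21 alternative analyses and its call in 18 of them. Without ByJcl baseline replicate 1 the adjusted p was 0.0593, without ByJcl baseline replicate 2 it was 0.0542 and without ByJcl Day 5 replicate 2 it was 0.0547 (edgeR), with log2FC of -0.44, -0.48 and -0.49.

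In Ajcl the Yap1 log2FC was -0.26 (SE 0.12), with an unadjusted p of 0.0430 and an adjusted p of 0.488 in edgeR, and Ajcl Day 5 replicate 1, at 209 CPM, lay below the other libraries of its group. With that library added the log2FC was -0.34 (adjusted p = 0.347, edgeR). Without Ajcl Day 5 replicate 3 it was -0.13 and without replicate 2 it was -0.44, so the size of the Ajcl value moved with the library used. The difference between the ByJcl and the Ajcl response was -0.23 on the log2 scale, with a 95% interval from -0.57 to 0.11 and an adjusted p of 0.705 (edgeR interaction test), so a larger fall in ByJcl was not shown. At Day 5 itself the substrains differed by -0.15 (SE 0.11, edgeR adjusted p = 0.582), and their libraries overlapped.

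Wwtr1 encodes TAZ, the paralog of YAP, and lies on chromosome 3 of GRCm39 from 57363067 to 57483331. Baseline levels were 208 ± 10.8 CPM for Ajcl and 219 ± 3.22 CPM for ByJcl (SD, n = 3 each), and at 192 ± 2.67 CPM (SD, n = 2) and 211 ± 11.9 CPM (SD, n = 3) at Day 5. Its ByJcl log2FC was -0.05, with a 95% interval from -0.24 to 0.13. The interval for Yap1 in ByJcl ran from -0.72 to -0.27, and the difference between the 2 genes was not tested. Both Ajcl Day 5 libraries, at 190.5 and 194 CPM, were below the baseline libraries at 196 to 215 CPM, a log2FC of -0.11 that was not called (adjusted p = 0.777, edgeR). A processed pseudogene, Gm16016, overlaps Wwtr1 on the opposite strand and was tested as well, so reads of the pair could be mixed if strand was not used in counting.

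**Figure D1:**
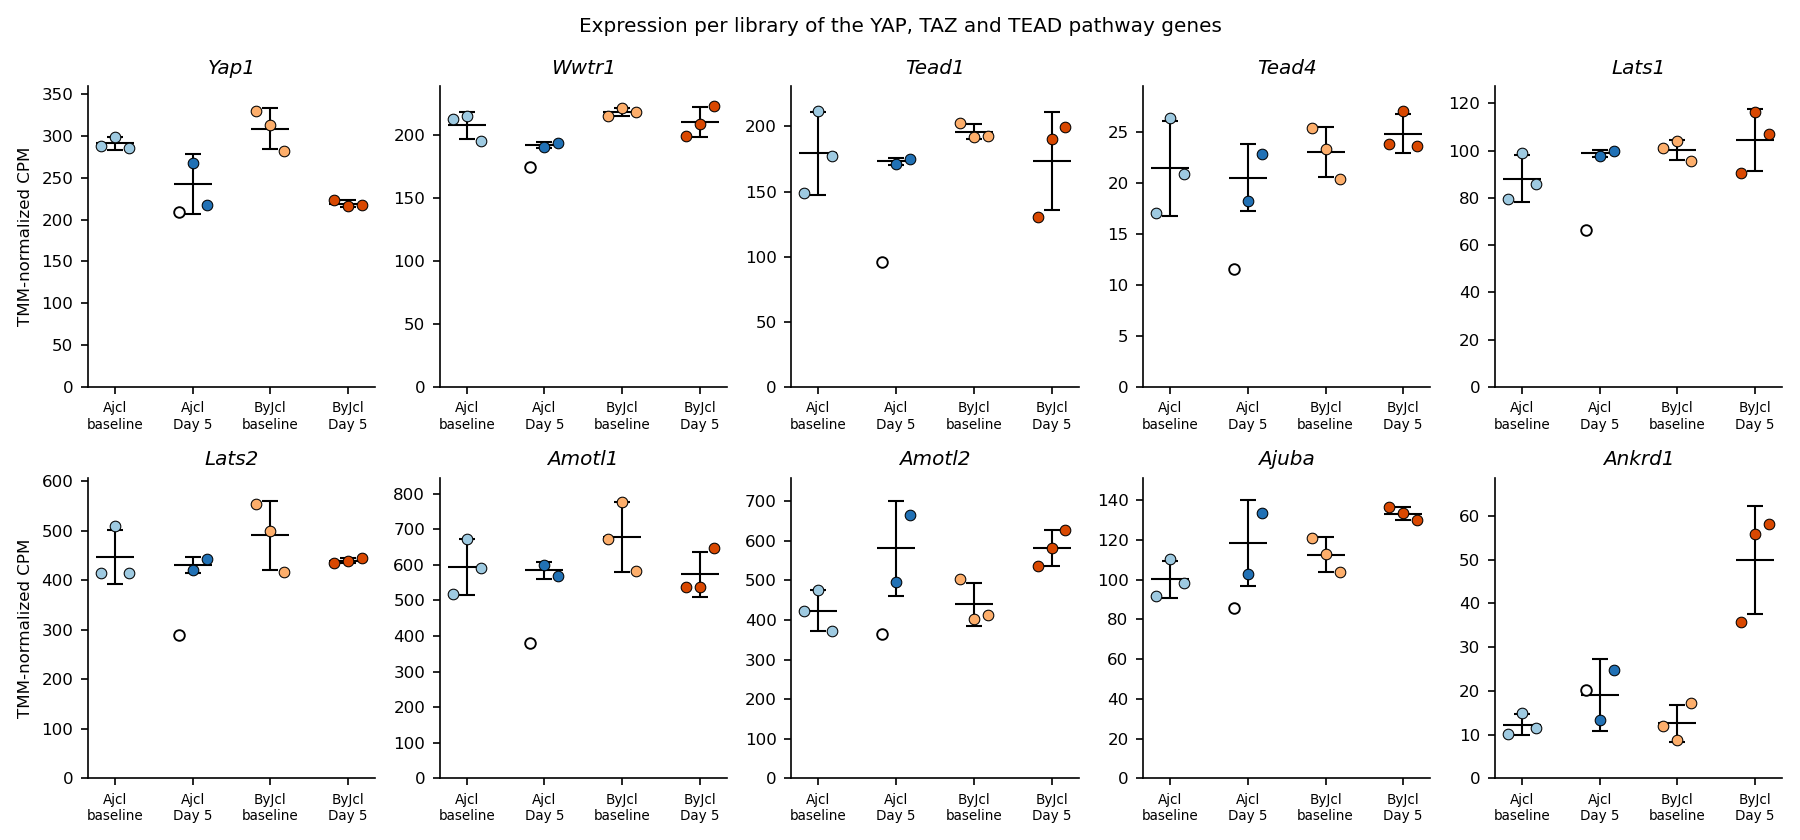
Level of each of the 10 genes in every library, as TMM-normalized CPM on linear axes from 0. Filled points are the 11 libraries tested, bars are mean ± SD over them (n = 2 for Ajcl Day 5), and the white point is Ajcl Day 5 replicate 1. Ankrd1 in ByJcl at Day 5 lies at 35.8 to 58.1 CPM, above all other libraries, and Yap1 there lies at 217 to 224 CPM, below all baseline libraries.

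The TEAD factors, which carry YAP and TAZ to DNA, did not pass the test in any comparison. Tead1 was at 149, 212 and 177.5 CPM in Ajcl and 203, 192 and 193 CPM in ByJcl at baseline, and at 171 and 175 CPM in Ajcl and 131, 190.5 and 199 CPM in ByJcl at Day 5. A single ByJcl Day 5 library, replicate 1, was low, and the groups overlapped. The ByJcl log2FC of Tead1 was -0.18 (95% interval from -0.53 to 0.18). Tead4 was far less abundant, at 17.0 to 26.3 CPM in Ajcl and 20.4 to 25.4 CPM in ByJcl at baseline. At Day 5 its 3 ByJcl libraries, at 23.6 to 27.1 CPM, lay above the Ajcl libraries at 18.2 and 22.8 CPM, a log2FC of 0.28 between substrains that was not called (adjusted p = 0.529, edgeR). In the Ajcl library left out, Tead1 was at 95.9 CPM and Tead4 at 11.6 CPM, the lowest value of each over the 12 libraries.

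The kinases LATS1 and LATS2 inhibit YAP and TAZ. Lats1 lay between 79.7 and 98.9 CPM in the Ajcl and between 95.7 and 104 CPM in the ByJcl baseline libraries, and at Day 5 between 97.8 and 100.0 CPM and between 90.5 and 116 CPM. Its log2FC at Day 5 against baseline was 0.17 in Ajcl and 0.06 in ByJcl, with 95% intervals from -0.11 to 0.44 and from -0.19 to 0.31. With the library left out added, the Ajcl value of Lats1 was -0.01. Lats2, the more abundant kinase, averaged 490.1 ± 69.0 CPM at baseline and 439 ± 4.92 CPM at Day 5 in ByJcl (SD, n = 3 each). Its log2FC was -0.16, with an interval from -0.43 to 0.12. Lats2 is itself known as a target of YAP, and its level did not pass the test in either direction. The 3 ByJcl Day 5 libraries spanned only 435 to 444 CPM and fell inside the baseline range of 417 to 554 CPM. Pcmt1 overlaps Lats1 on the opposite strand and was also tested.

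Amotl1 and Amotl2 encode angiomotin-like proteins, junctional scaffolds that bind YAP directly. Amotl2, which is also known as a YAP target, was at 423, 476 and 373 CPM in Ajcl and 503, 402 and 413 CPM in ByJcl at baseline. At Day 5 it was at 497 and 665 CPM in Ajcl and 536, 581 and 628 CPM in ByJcl. All 5 tested Day 5 libraries were above the baseline libraries of their own substrain. The log2FC was 0.45 (SE 0.16) in Ajcl and 0.41 (SE 0.15) in ByJcl, with unadjusted p of 0.0169 and 0.0180 in edgeR. Neither was called after Benjamini-Hochberg adjustment, at 0.345 and 0.102, and DESeq2 called the ByJcl value (adjusted p = 0.0366). In Ajcl the value moved with the library used: without Ajcl Day 5 replicate 3 the log2FC of Amotl2 was 0.22, and without replicate 2 it was 0.63. Ajcl Day 5 replicate 1 was at 363 CPM, below each baseline library of its substrain, and with it the log2FC was 0.25 (adjusted p = 0.818, edgeR). With that library in place of replicate 3 it was 0.02 (adjusted p = 0.979, edgeR). The difference between the responses was -0.05 (95% interval from -0.53 to 0.43).

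Amotl1 showed no such shift. It was at 518 to 673 CPM in Ajcl and 582 to 778 CPM in ByJcl at baseline, and at 568 and 600.5 CPM in Ajcl and 537 to 647 CPM in ByJcl at Day 5. The ByJcl log2FC of Amotl1 was -0.24 (95% interval from -0.55 to 0.07), opposite in sign to that of Amotl2. Ajuba encodes a LIM-domain adaptor that binds LATS kinases at junctions. In ByJcl its libraries at baseline were at 121, 113 and 104 CPM and at Day 5 at 136, 133 and 130 CPM, with no overlap. The log2FC of Ajuba was 0.24 (SE 0.11, unadjusted p = 0.0582, adjusted p = 0.204, edgeR). In Ajcl the value was 0.24, from libraries at 103 and 134 CPM, and the library left out was at 85.7 CPM, below all 3 Ajcl baseline libraries. The Ajuba value in Ajcl was 0.40 without Day 5 replicate 2 and 0.03 without replicate 3. It turned to -0.09 when replicate 1 stood in place of replicate 3.

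Ankrd1 encodes a nuclear ankyrin-repeat protein that muscle and other cells induce under stretch, and is among the most widely used reporters of YAP and TAZ activity. It lies on chromosome 19 of GRCm39 from 36089352 to 36097506 on the minus strand. At baseline it was at 10.2, 15.0 and 11.6 CPM in Ajcl and 11.9, 8.78 and 17.2 CPM in ByJcl, from 415 to 932 counts per library. At Day 5 it was at 13.2 and 24.9 CPM in Ajcl and 35.8, 55.9 and 58.1 CPM in ByJcl. Each ByJcl Day 5 library was above every other library, while Ajcl Day 5 reached from inside the baseline range to above it. In ByJcl the log2FC was 1.98 (SE 0.30, edgeR adjusted p = 0.00342), from 12.6 ± 4.23 to 49.9 ± 12.3 CPM (SD, n = 3 each). The call held in 21 of 21 alternatives, with log2FC from 1.78 to 2.27 and adjusted p from 8.97e-10 to 0.0191.

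In Ajcl the Ankrd1 log2FC was 0.64 (SE 0.33, edgeR adjusted p = 0.577), with a 95% interval from -0.08 to 1.35. The library left out was at 20.2 CPM, between the other Ajcl Day 5 libraries, and with it the value was 0.65 (adjusted p = 0.512, edgeR). Without Ajcl Day 5 replicate 3 the Ankrd1 value in Ajcl was 0.10 and without replicate 2 it was 1.00. With replicate 1 in place of replicate 3 it was 0.44 and in place of replicate 2 it was 0.85, so its size moved with the libraries used. The ByJcl response exceeded that of Ajcl by 1.35 log2 units (SE 0.45), with an unadjusted p of 0.0116 and an adjusted p of 0.620 in edgeR's interaction test, so the difference did not pass. Over 20 alternatives for the interaction it stayed between 0.99 and 1.89 and was called in 0 of them. At Day 5 the substrains themselves differed by 1.39 (SE 0.34, unadjusted p = 0.00184, adjusted p = 0.139, edgeR), and every ByJcl library was above every Ajcl library. DESeq2 called this substrain difference (log2FC 1.40, adjusted p = 0.00202). edgeR called it when Ajcl Day 5 replicate 1 stood in place of replicate 3 (log2FC 1.57, adjusted p = 0.0259), and over all alternatives the adjusted p ran from 0.00202 to 0.988.

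**Figure D2:**
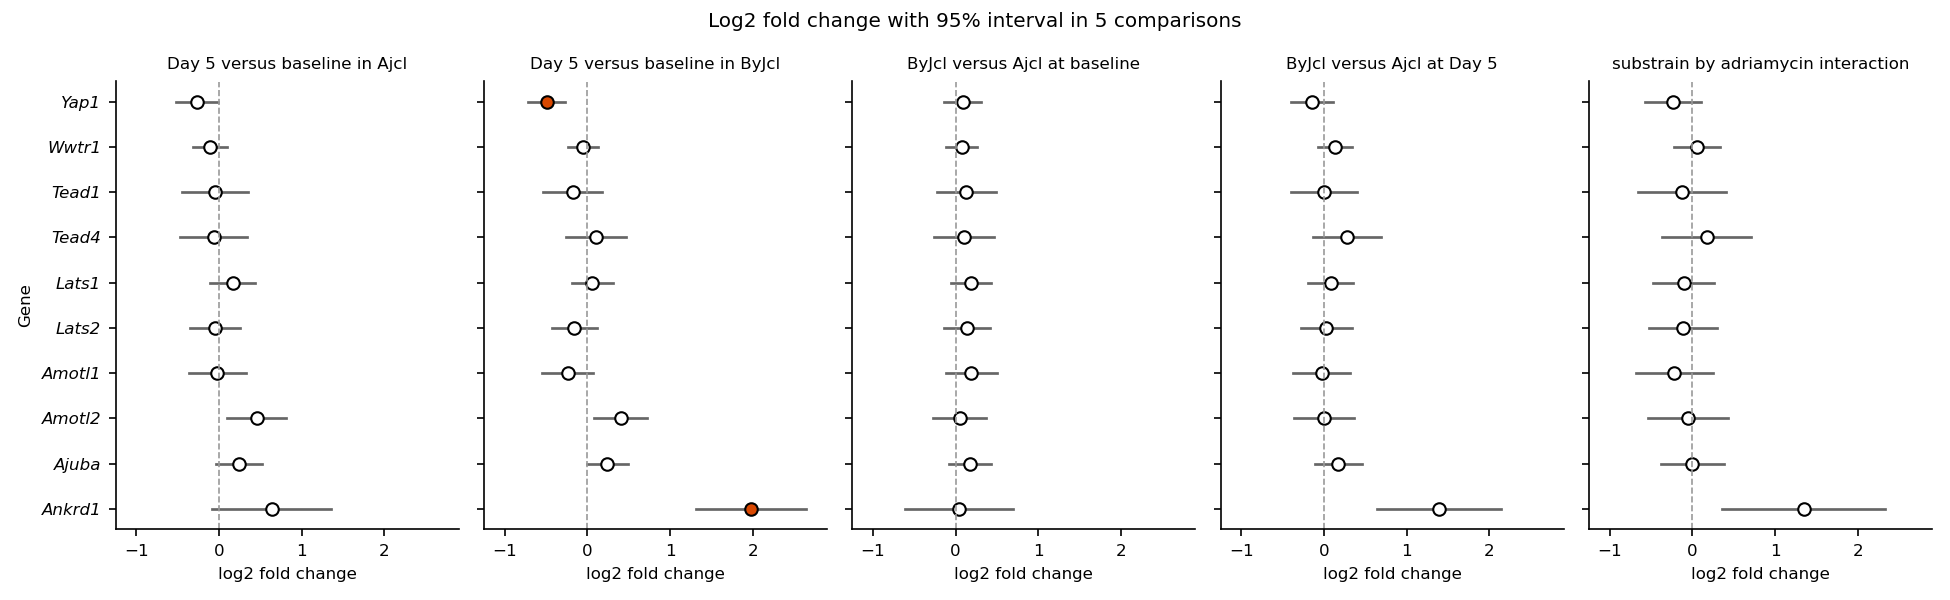
Log2 fold change of each of the 10 genes in the 5 comparisons, with its 95% interval computed from edgeR's quasi-likelihood test on 11 libraries. Filled points are called at an adjusted p below 0.05: Yap1 at -0.49 and Ankrd1 at 1.98, both for Day 5 against baseline in ByJcl.

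In Ajcl at Day 5 against baseline, edgeR called 0 of the 10 where 0.312% of all genes were called (0.306% higher and 0.00588% lower), DESeq2 called 0 against 1.77%, and 2 had an unadjusted p below 0.05, Yap1 and Amotl2. In ByJcl edgeR called 2, beside 10.6% of all genes, and DESeq2 called 3, beside 15.8%. Between the substrains at baseline edgeR and DESeq2 called 0 against 0.594% of all genes in DESeq2 and 0.159% in edgeR (0.135% higher in ByJcl and 0.0235% lower), and 0 had an unadjusted p below 0.05. At Day 5 edgeR called 0 against 0.165% (0.135% higher and 0.0294% lower), DESeq2 called 1 against 3.26%, and 1 had an unadjusted p below 0.05, in each case Ankrd1. The interaction test in edgeR called 0 genes of all 17002 (1363 had an unadjusted p below 0.05, and DESeq2 called 23) and 0 of the 10, with 1 at an unadjusted p below 0.05 and 0 called by DESeq2. The median log2FC over the 10 genes was -0.04 in Ajcl and 0.00 in ByJcl at Day 5 against baseline, beside medians over all genes of -0.01 and 0.01.

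Libraries of the compared groups did not overlap for 4 of the 10 genes in ByJcl at Day 5 against baseline (Yap1 below, Amotl2, Ajuba and Ankrd1 above), where 33.4% of all tested genes did not overlap (17.3% above and 16.1% below). In Ajcl this held for 3 of the 10 (Yap1 and Wwtr1 below, Amotl2 above) against 25.1% of all genes (13.6% above and 11.5% below). Between the substrains it held for 0 of the 10 at baseline, against 14.5% (9.19% higher and 5.29% lower), and for 3 of the 10 at Day 5 (Wwtr1, Tead4 and Ankrd1, all higher in ByJcl), against 33.4% (16.9% higher and 16.5% lower).

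Before treatment the 10 genes did not separate the substrains. All 10 had a log2FC above 0 (ByJcl against Ajcl), from 0.04 for Ankrd1 to 0.19 for Amotl1, with a median of 0.12 beside 0.01 over all genes. None of the 10 passed the test, and the libraries of the substrains overlapped for each gene. Lats1 had the smallest unadjusted p of the 10 at baseline, 0.127 (log2FC 0.18, adjusted p = 0.643, edgeR). Under the alternatives 4 of the genes, Tead1, Tead4, Amotl2 and Ankrd1, changed sign at baseline in at least 1 setting. All 10 podocyte markers (median log2FC 0.22) and all 5 mesangial markers (0.26) were also above 0 at baseline. All 8 proximal tubule markers (median -0.93) and all 4 distal nephron markers (-1.27) were below 0. Of these markers edgeR called 0, and their part in the values of the 10 genes was not tested.

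Levels of different genes were compared per kilobase of merged exon. At baseline the order in Ajcl was Amotl2 at 60.0 and Amotl1 at 58.8 CPM per kilobase, then Lats2 at 42.5, Yap1 at 31.0, Ajuba at 26.3, Wwtr1 at 17.6, Tead1 at 13.2, Lats1 at 7.02, Ankrd1 at 4.11 and Tead4 at 3.53 CPM per kilobase. Neighbours in that order did not overlap between libraries, except Amotl2 with Amotl1 and Ankrd1 with Tead4. In ByJcl the baseline order was the same apart from Amotl1 and Amotl2, which overlapped there too, as did Ankrd1 with Tead4 and Yap1 with Ajuba. At Day 5 in ByJcl, Ankrd1 stood at 16.7 CPM per kilobase, the seventh place, where it overlapped with Wwtr1 at 17.8 and Tead1 at 12.8 CPM per kilobase. Ajuba, at 35.1 CPM per kilobase, lay above Yap1, at 23.4, with no overlap in ByJcl at Day 5.

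Further genes of the pathway were taken from lists by role. These lists were also chosen with earlier results of these data known, so their counts and medians are descriptions. The target list held 22 genes, all tested, and edgeR called 6 of them higher and 0 lower in ByJcl at Day 5 against baseline, where 5.75% of all tested genes were called higher and 4.83% lower. Foxf2 had 0 counts in all baseline libraries, so its fitted fold is no bound and it is left out of the next values. Over the other 21 targets the median log2FC in ByJcl was 0.47, beside 0.01 over all genes, with 14 above 0 and 7 below. In Ajcl it was 0.16, beside -0.01 over all genes, also with 14 above 0 and 7 below. With Foxf2 at the lower bound set by 3 counts per library the ByJcl median was 0.48. The count of 6 was lower without single ByJcl libraries: 2 without baseline replicate 1, 1 without baseline replicate 2 and 3 without Day 5 replicate 2. Single calls were also lost elsewhere: those of Ccn2 and Myof without ByJcl baseline replicate 3, and those of Crim1 and Myof with all 12 libraries. DESeq2 called 10 higher and 2 lower, where it called 15.8% of all tested genes in either direction.

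Ccn1 and Ccn2, the matricellular proteins CYR61 and CTGF, are the textbook targets beside Ankrd1. Ccn1 was at 280, 275 and 424 CPM in ByJcl at baseline and 589, 664 and 777 CPM at Day 5, with no overlap. Its log2FC was 1.05 (SE 0.23, edgeR adjusted p = 0.0159), and the adjusted p was 0.0628 without ByJcl baseline replicate 1, 0.0709 without ByJcl baseline replicate 2 and 0.0531 without ByJcl Day 5 replicate 2. In Ajcl, Ccn1 was at 305, 320 and 262 CPM at baseline and 250 and 446 CPM at Day 5, a log2FC of 0.23 (adjusted p = 0.832, edgeR), with 1 Day 5 library below and 1 above the baseline range. The Ccn1 value in Ajcl turned to -0.26 without Day 5 replicate 3. Ccn2 was the most abundant target named, at 2213 ± 48.8 CPM at baseline and 4710 ± 1389 CPM at Day 5 in ByJcl (SD, n = 3 each). Its ByJcl log2FC was 1.09 (SE 0.24, edgeR adjusted p = 0.0168), and its Ajcl log2FC 0.52 (SE 0.26, edgeR adjusted p = 0.565). The ByJcl call of Ccn2 was lost without any single ByJcl baseline library or without ByJcl Day 5 replicate 2 (adjusted p from 0.0527 to 0.0690). In Ajcl the Ccn2 value was 0.09 without Day 5 replicate 3 and 0.83 without replicate 2. For Ccn1 the difference between the responses was 0.82 (unadjusted p = 0.0347, adjusted p = 0.620, edgeR interaction test), and for Ccn2 it was 0.57 (adjusted p = 0.691).

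Gadd45b and Gadd45a, growth arrest and DNA damage genes that also respond to genotoxic stress without YAP, rose in ByJcl as well. Gadd45b went from 31.0, 27.4 and 25.4 CPM to 115, 143 and 137 CPM, a log2FC of 2.24 (SE 0.29, edgeR adjusted p = 0.00171). In Ajcl it was at 36.1 and 92.0 CPM at Day 5 against 21.4 to 31.9 CPM at baseline, a log2FC of 1.31 (adjusted p = 0.131, edgeR) that DESeq2 called (adjusted p = 0.00279) and edgeR called without Ajcl Day 5 replicate 2 (log2FC 1.82, adjusted p = 0.00299), while without Ajcl Day 5 replicate 3 it was 0.47. Gadd45a rose by 0.92 (SE 0.20, edgeR adjusted p = 0.0153) in ByJcl, where Day 5 replicate 2 at 182 CPM was well above the others at 107 and 103 CPM, and its adjusted p was 0.0679 without ByJcl baseline replicate 2. Over the alternatives its ByJcl log2FC ran from 0.60 to 1.08. In Ajcl the Gadd45a log2FC was 0.21 (adjusted p = 0.83, edgeR). Crim1, a membrane protein that binds BMP ligands and is expressed in podocytes, had a log2FC of 0.71 (SE 0.15, edgeR adjusted p = 0.0159) in ByJcl and 0.72 (SE 0.17, edgeR adjusted p = 0.137) in Ajcl, the latter from 0.28 to 0.89 by the Day 5 libraries used. Its interaction value was -0.01 (SE 0.23), and its ByJcl call was lost without ByJcl baseline replicate 1 (adjusted p = 0.0637, edgeR) or 2 (0.0624), with all 12 libraries (0.0501) and with Ajcl Day 5 replicate 1 in place of replicate 2 (0.0725). The sixth called target, Myof, a membrane-repair gene, is named after its values were seen, with a log2FC of 0.73 (adjusted p = 0.0305, edgeR). Its call was lost without any single ByJcl baseline library or without ByJcl Day 5 replicate 2 (adjusted p from 0.0597 to 0.119), and also for Myof with all 12 libraries (0.116) or with Ajcl Day 5 replicate 1 in place of replicate 2 (0.145) or 3 (0.0869).

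**Figure D3:**
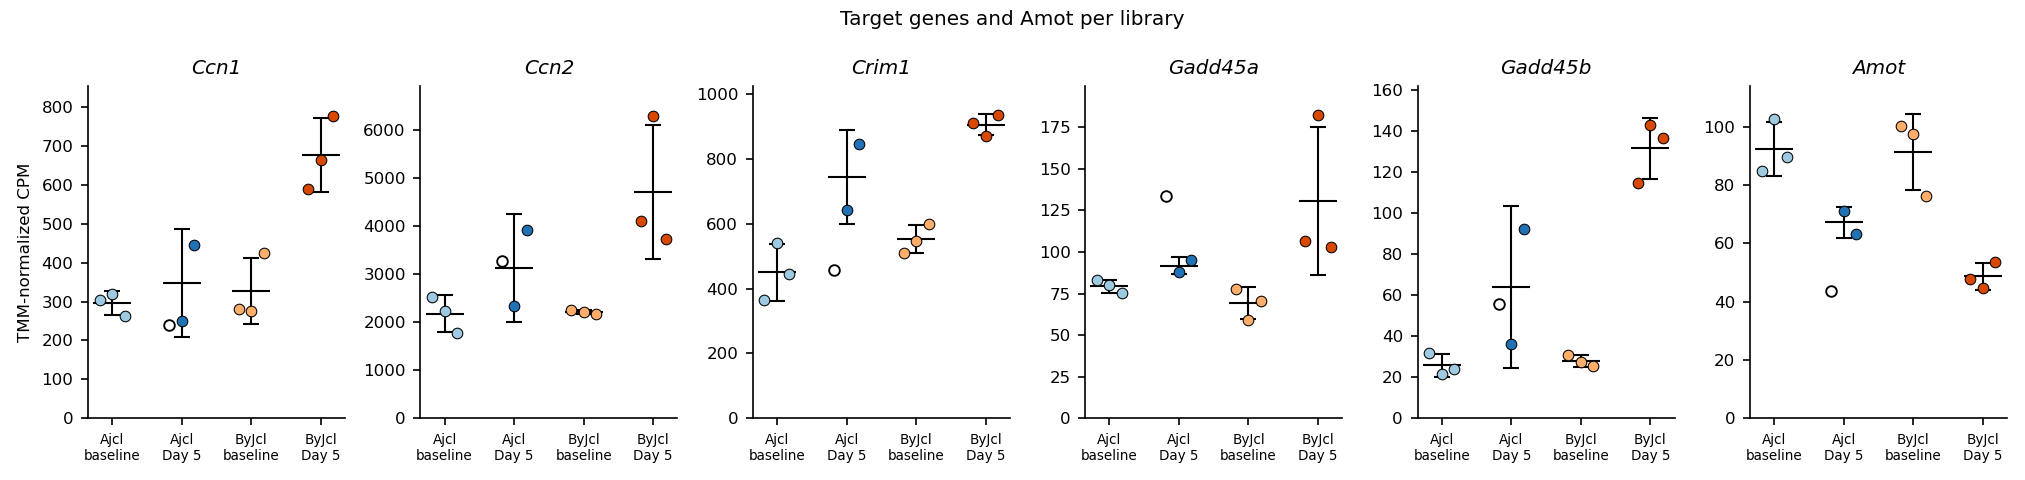
Level of 5 target genes and of Amot in every library, as TMM-normalized CPM on linear axes from 0, with mean ± SD over the libraries tested and Ajcl Day 5 replicate 1 in white. In ByJcl the Day 5 libraries of Ccn1, at 589 to 777 CPM, and of Gadd45b, at 115 to 143 CPM, lie above all baseline libraries, and those of Amot, at 44.5 to 53.6 CPM, lie below them.

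The list of junction, polarity and LIM inputs held 15 genes, all tested, of which edgeR called 1 higher and 3 lower in ByJcl at Day 5 against baseline, beside 5.75% and 4.83% of all tested genes. Its median log2FC was -0.35 in ByJcl and 0.07 in Ajcl. Amot, the founding angiomotin, was at 100, 97.5 and 76.3 CPM at baseline and 47.9, 44.5 and 53.6 CPM at Day 5 in ByJcl, with a log2FC of -0.91 (SE 0.13, edgeR adjusted p = 0.00266). In the same libraries its relatives Amotl1 and Amotl2 had values of -0.24 and 0.41, neither called. In Ajcl, Amot was at 71.0 and 63.3 CPM at Day 5 against 84.9 to 103 CPM at baseline, a log2FC of -0.46 that was not called (unadjusted p = 0.00813, adjusted p = 0.280, edgeR). The polarity genes Crb2 and Mpp5 (Pals1), whose proteins bind each other at the apical junction and of which Crb2 is a podocyte slit diaphragm gene, fell by 1.12 (SE 0.22, edgeR adjusted p = 0.0117) and by 1.17 (SE 0.18, edgeR adjusted p = 0.00389) on the log2 scale in ByJcl. Rassf1, a scaffold that binds MST kinases, rose by 0.59 (SE 0.14, edgeR adjusted p = 0.0213) but lost its call without ByJcl baseline replicate 1 (adjusted p = 0.0811), baseline replicate 2 (0.0527) or Day 5 replicate 2 (0.0881).

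Of 14 core kinases and scaffolds, edgeR called 1 in ByJcl at Day 5 against baseline, lower, and the median of the list was -0.05. With 10.6% of all tested genes called in this comparison, 1 of 14 is not above the background. The gene was Stk38, a relative of the LATS kinases, at 91.5, 100 and 104 CPM at baseline and 75.6, 74.5 and 78.8 CPM at Day 5, a log2FC of -0.37 (SE 0.09, edgeR adjusted p = 0.0286). Its call was lost with all 12 libraries (adjusted p = 0.0922), with Ajcl Day 5 replicate 1 in place of replicate 3 (0.104) and without each of 5 of the 6 ByJcl libraries (0.0594 to 0.0987), baseline replicate 1 being the exception. Of the 6 TEAD partners and cofactors, 4 were tested and edgeR called 0 in ByJcl, with 2 at an unadjusted p below 0.05 and 2 called by DESeq2, beside 15.8% of all tested genes. These were Tead3, at a log2FC of 0.39 (adjusted p = 0.0537, edgeR), and Vgll4, a repressor that competes with YAP for TEAD, at -0.45 (adjusted p = 0.0632, edgeR), both named after their values were seen. Vgll1 had 0 counts in all 12 libraries and Vgll2 had 6 counts in 1 library and 0 in the others, so both were below what this depth tests.

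In the other comparisons edgeR called 0 genes of the 4 lists. In Ajcl at Day 5 against baseline 5 targets, 2 junction genes and 1 TEAD partner had an unadjusted p below 0.05, as had 9.80% of all tested genes, and DESeq2 called 2 targets, Gadd45b and Crim1, beside 1.77% of all tested genes. Between the substrains at baseline 3 targets, 2 junction genes and 1 core gene did so, beside 8.34% of all genes, and DESeq2 called 0. At Day 5 it was 8 targets, 5 junction genes and 3 core genes, beside 14.0% of all genes, and DESeq2 called 5 targets higher and 2 junction genes lower in ByJcl, beside 3.26% of all tested genes in either direction. For the interaction it was 6 targets, 5 junction genes and 1 core gene, beside 8.02% of all genes, and DESeq2 called 0.

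**Figure D4:**
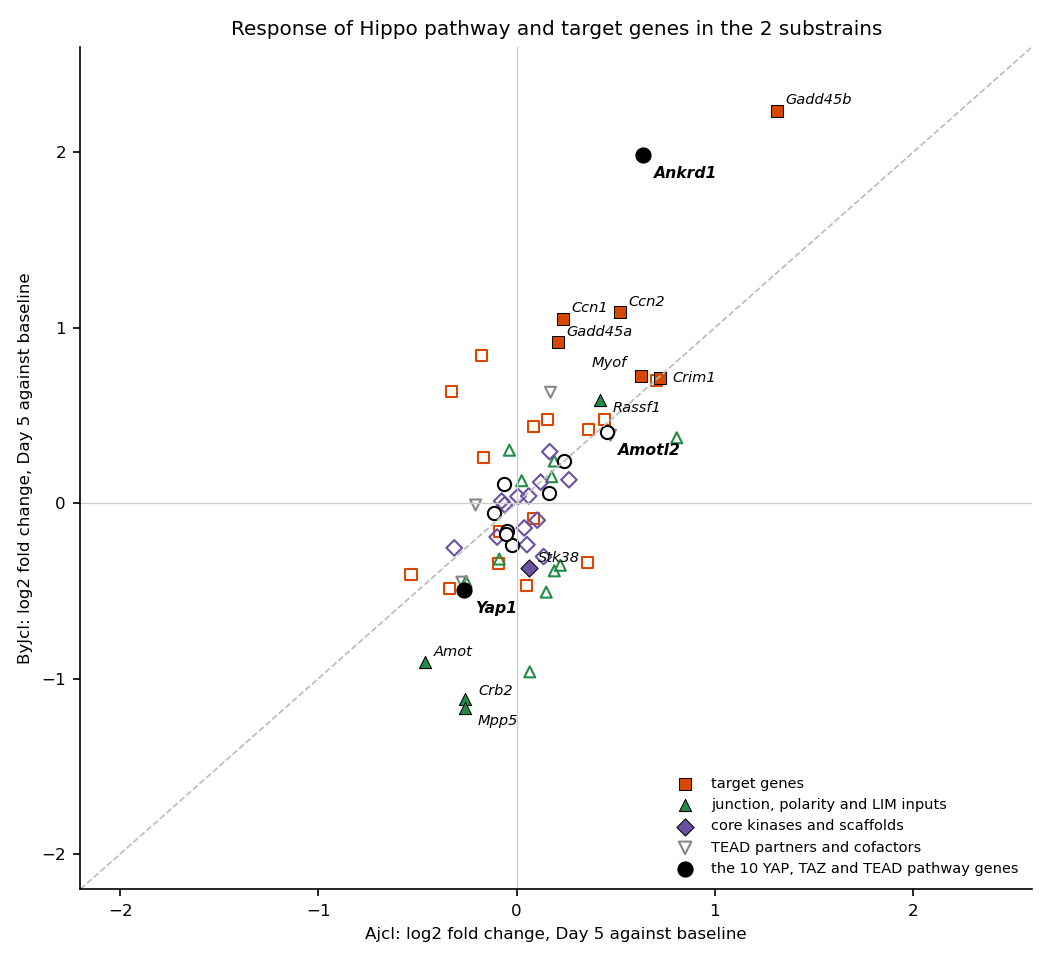
Log2 fold change at Day 5 against baseline in Ajcl (horizontal) and in ByJcl (vertical) for the 10 genes and the tested genes of the 4 lists, without Foxf2, which had 0 counts at baseline. Filled symbols are called in ByJcl, and the dashed line marks equal values. Ankrd1 lies at 0.64 and 1.98, Ccn1 at 0.23 and 1.05, and Yap1 at -0.26 and -0.49.

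Cell type markers moved with these results. In ByJcl at Day 5 against baseline edgeR called 9 of 10 podocyte markers lower and 1, Cdkn1c, higher, with a median log2FC of -1.20. Of all tested genes 4.83% were called lower and 5.75% higher. The summed podocyte markers fell from between 19654 and 22665 CPM to between 9908 and 13862 CPM in ByJcl. In Ajcl they were at 15649 to 21478 CPM at baseline and 12732 to 16613 CPM at Day 5, and at 11518 CPM in the library left out. For Ajcl edgeR called 0 of 10 (4 at an unadjusted p below 0.05). DESeq2 called 2 lower and 1 higher there, beside 1.77% of all tested genes. Each podocyte marker had at least 2306 counts in every library. The part of podocyte content in the Yap1, Amot and Crb2 values was not tested.

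Smooth muscle markers summed to 511 to 632 CPM in ByJcl at Day 5, against 305 to 386 CPM in ByJcl at baseline and 329 to 366 CPM in Ajcl at both times, and 406 CPM in the Ajcl library left out. Of these 4 markers edgeR called 1, Tagln, which rose in ByJcl with a log2FC of 1.31 (adjusted p = 0.00163) and was also higher in ByJcl than in Ajcl at Day 5 (1.15, adjusted p = 0.0436). Ankrd1 is expressed in muscle, and Tagln and Ankrd1 were highest in the same 3 libraries. Tagln carried most of the change in the sum, with means of 127 ± 28.6 CPM at baseline and 314 ± 35.5 CPM at Day 5 in ByJcl (SD, n = 3 each). Acta2 had means of 105 and 113 CPM and Myh11 of 115 and 124 CPM in the same groups, neither called, and Cnn1 was below 3 CPM in every library. No smooth muscle marker was at 0 in any library, and the lowest count among them was 34. Whether smooth muscle content or a change within cells set the Ankrd1 level was not tested.

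**Figure D5:**
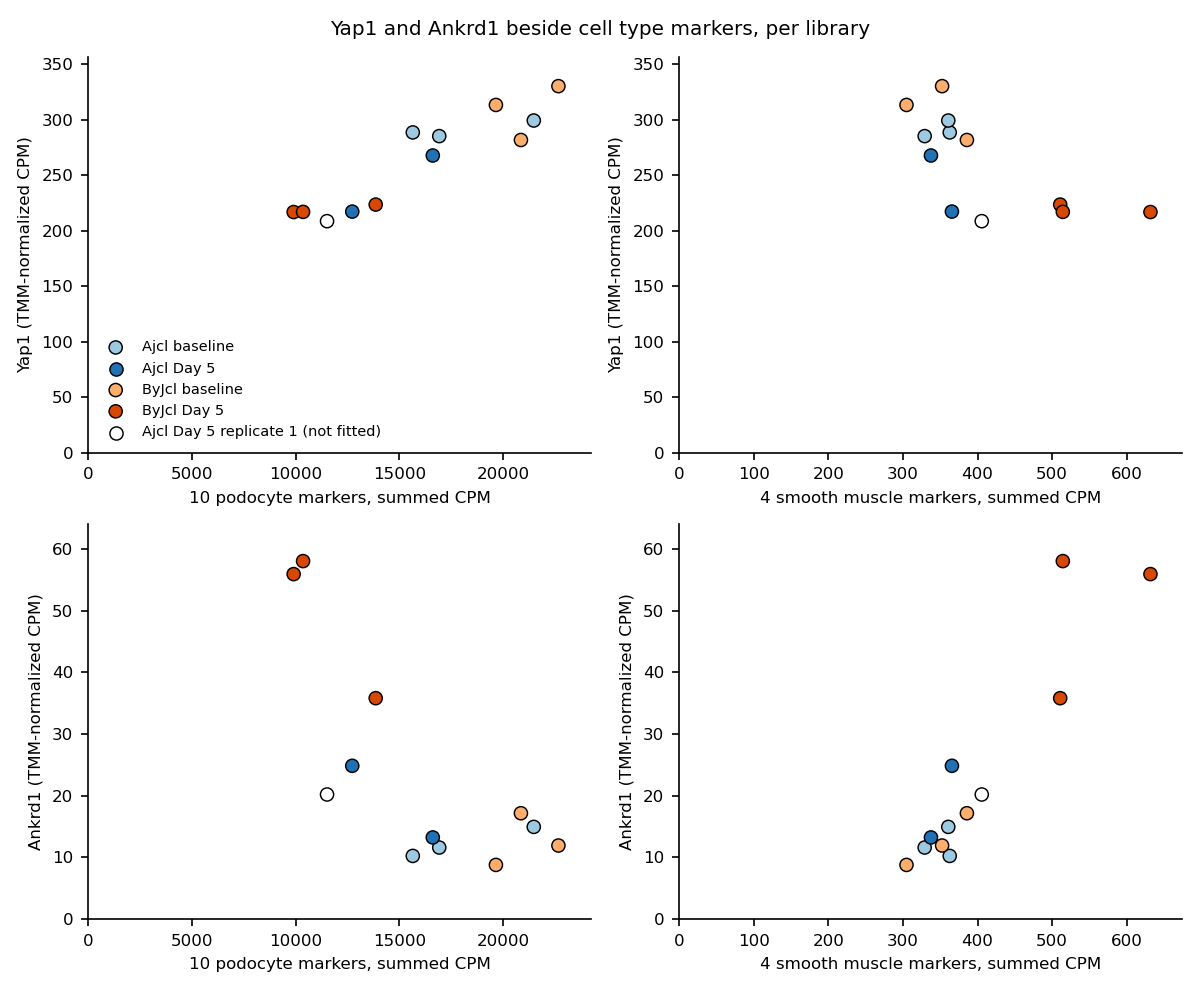
Yap1 (top) and Ankrd1 (bottom) in each library against the summed level of 10 podocyte markers (left) and of 4 smooth muscle markers (right), all as TMM-normalized CPM on linear axes from 0. White is Ajcl Day 5 replicate 1. The 3 ByJcl Day 5 libraries lie at 9908 to 13862 CPM of podocyte markers and at 511 to 632 CPM of smooth muscle markers, a sum in which Tagln carries most of the difference from baseline.

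Glomerular endothelial markers summed to 4686 to 6840 CPM in ByJcl at Day 5 against 7665 to 9060 CPM at baseline. Of these 7 markers edgeR called 2 lower (4 at an unadjusted p below 0.05, 3 lower by DESeq2). In Ajcl they summed to 6518 to 7798 CPM over both times in the libraries tested, and to 5169 CPM in the library left out. The shares of all tested genes that edgeR called in ByJcl, 4.83% lower and 5.75% higher, stand beside each count here. Mesangial markers, 0 of 5 called in ByJcl (1 at an unadjusted p below 0.05, 0 by DESeq2), summed to 1584 to 2263 CPM at Day 5 and 1701 to 2137 CPM at baseline. Parietal epithelial markers, of which 1 of 5 rose in ByJcl (Cldn1), summed to 81.0 to 132 CPM there at Day 5 and 80.9 to 98.9 CPM at baseline. Immune markers, with 1 of 7 higher (Cd68), summed to 57.9 to 110.5 CPM at Day 5 and 51.2 to 90.4 CPM at baseline in ByJcl, and to 13.7 to 47.2 CPM in Ajcl. Proximal tubule markers, 0 of 8 called in ByJcl (0 at an unadjusted p below 0.05, 0 by DESeq2), summed to 492 to 1891 CPM at Day 5 and 530 to 2971 CPM at baseline, and distal nephron markers, 0 of 4 called (0 at an unadjusted p below 0.05, 0 by DESeq2), to 93.6 to 493 CPM and 134 to 518 CPM. In Ajcl the proximal markers summed to 1930 to 2568 CPM at Day 5 and 1693 to 5196 CPM at baseline. Distal markers there summed to 736 to 951 CPM and 482 to 1446 CPM. At both times all 8 proximal and all 4 distal markers were lower in ByJcl than in Ajcl, 0 of them called by edgeR. The median log2FC was -0.93 and -1.27 at baseline and -0.97 and -1.33 at Day 5. The part of tubule content in the substrain values was not tested. Of 3 erythroid markers Hbb-bs and Hba-a1 had 0 counts in every library, and Alas2 fell in both substrains.

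Over the 11 libraries, the genes whose log2(CPM + 1) was most like that of Yap1 were Pld6 (Pearson r = 0.991), Pard3b (0.978) and Ankrd6 (0.976). Those most like Ankrd1 were Ada (0.978), Vopp1 (0.970) and Foxs1 (0.969). The points share the 4 groups and their podocyte and muscle content, so these values are descriptions.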

How the data were processed

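Glomerular RNA of 12 mouse libraries was measured as gene counts. The authors deposited raw counts per gene in 1 table for baseline and 1 for Day 5. Per the labels these came from FastQC, Trimmomatic, STAR on GRCm39 and featureCounts, while the annotation, strand and multimapping settings are not given in the sources used here. If read ends were counted singly or overlapping genes were not separated by strand, counts would shift as described beside the genes concerned. Total counts of 42198416 to 54687045 make counting error small except for the rarest genes, where 3 counts equal 0.0639 CPM in the median library.

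Groups followed the labels. The deposited counts were fitted with edgeR 4.0.16 (R 4.3.3): genes were kept by filterByExpr with a minimum count of 10, scaled by TMM and tested with the quasi-likelihood test, 1 group mean each, over 11 libraries, with 7 residual degrees of freedom. P-values were adjusted by Benjamini-Hochberg over all 17002 genes tested, and a call is an adjusted p below 0.05. Ajcl Day 5 replicate 1 was left out, following the study. Comparisons were Day 5 against baseline in each substrain, the substrains at each time, and their interaction. The fit was tested on simulated data. Alternatives were DESeq2 1.42.0, RLE scaling, other count filters, all 12 libraries, a replicate block, only the compared groups, each library left out, and halved counts (chosen after seeing the data). Same-numbered libraries did not deviate together in every pair of any comparison (correlations from -0.389 to 0.527), so the numbers were not taken to pair them.

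The 10 genes and the lists were chosen with earlier results of these data known. The 10 genes, Ccn1 and Ccn2 were always named, as were at most 5 genes a list, by the smallest adjusted p among those called in any comparison. For likeness, the 3 other tested genes with the highest Pearson correlation were named. Promoters were read from RefSeq on GRCm38.p6, gene positions from GENCODE M39.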

Additional observations from a re-analysis of the deposited data

How the results depend on the processing

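Over 21 alternatives (20 for the interaction) the ByJcl Day 5 call of Ankrd1 held in 21 and that of Yap1 in 18, and no called value changed sign. Of the 10 genes, edgeR called 2 in ByJcl at Day 5 against baseline, beside 10.6% of all tested genes, and 1 to 2 with 1 library left out. Between the substrains at Day 5, DESeq2 called 1 and edgeR called 1 when Ajcl Day 5 replicate 1 replaced replicate 3. For the lists in ByJcl, the core genes gave 0 calls with all 12 libraries, 0 with that replacement and 0 to 1 with 1 library left out. TEAD partners gave 2 with DESeq2, 1 with RLE, 1 with a CPM filter, 1 with halved counts and 0 to 2 with 1 library left out. Targets gave 12 with DESeq2 and 1 to 8 with 1 library left out. In Ajcl, targets gave 2 with DESeq2, 1 when replicate 1 replaced replicate 2 and 0 to 1 with 1 left out, and junction genes gave 1 under that replacement. At Day 5 junction genes gave 2 with DESeq2, 2 with replicate 1 in place of replicate 3 and 0 to 1 with 1 left out, and targets 5, 4 and 0 to 2.

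Over all genes, the Ajcl count of 53 was 301 with DESeq2, 99 without a filter, 26 with the replicate block, 33 with only the groups compared, 148 and 22 with replicate 1 in place of replicate 2 and 3, and 11 to 180 with 1 library left out. The ByJcl count of 1800 was 1197 with all 12 libraries and 680 to 2056 with 1 left out. At baseline 27 became 101 with DESeq2, 15 with only the groups compared, 15 with replicate 1 in place of replicate 3 and 12 to 29 with 1 left out. At Day 5 28 became 555 with DESeq2, 56 without a filter, 72 with all 12 libraries, 6 with only the groups compared, 15 and 793 under the 2 replacements and 9 to 218 with 1 left out. The interaction count of 0 became 23 with DESeq2, 2 with replicate 1 in place of replicate 3 and 0 to 5 with 1 left out. The interaction compares every group, so a fit on only the groups compared is the main fit. The replicate block gave 2 of the 10 genes in ByJcl and 0 elsewhere, and 1592 of all genes in ByJcl. A lone Ajcl Day 5 library was assumed to vary like the other groups. The causes were not tested.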
